A study of Mus musculus with 6 samples.

Results

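The brush border digestive hydrolases examined here were 9 genes chosen by name for the enzymes they encode: Sis, Mgam, Lct, Treh, Anpep, Enpep, Dpp4, Mep1a and Alpi. They were read by 10 probes, of 55681 non-control probes and 22833 named genes on the array, because Mgam had 2 probes and each other gene had 1. All 10 probes were well above background on all 6 arrays and none was saturated, so the 9 genes were all measured in every mouse.

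Brush border hydrolases are enzymes anchored in the microvilli of the mature enterocyte, with their active sites facing the gut lumen. They carry out the last step of digestion, cutting disaccharides and short glucose chains to single sugars and peptides to amino acids and very short peptides that the neighbouring carriers take up. Their genes are switched on as enterocytes leave the crypt and climb the villus, and several of them are known to vary in level along the length of the small intestine.

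The samples were jejunum from 6 male C57BL/6J mice, all of which received 9 Gy radiation and were sampled 6 hours later. The groups differed in what was given by stomach tube 0.5 hours before the radiation: the compound VND3207 at 100 mg/kg in 3 mice, or the same volume of vehicle in 3 mice. The labels give no age, and no unirradiated mouse was analysed here. Every value below is therefore from irradiated tissue, and the groups did not differ in radiation. RNA from each mouse was labelled with Cy3 and hybridised to 1 Agilent array.

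Levels are given as log2 of the processed spot signal minus the 75th percentile of the same array, so that 1 unit is a doubling and a difference is the mean of the VND3207 mice minus that of the vehicle mice. The vehicle arrays lay on 1 slide and the VND3207 arrays on the other, and each slide had its own scan, so slide, scan and treatment cannot be told apart in any difference below. Between 66.7 and 70.0% of spots were well above background for vehicle mice, and between 58.8 and 61.4% for VND3207 mice. VND3207 replicate 3 stood apart in 1 tissue component: all 6 smooth muscle markers were low there, with a median deviation of -1.85 from their own 6-mouse means against 0.17 to 0.58 in the other 5 mice. Results for Lct, Anpep, Treh and the smooth muscle genes are therefore also given without it. In whole tissue, fewer cells of a type and less RNA per cell cannot be told apart.

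The sequence upstream of 5 of the genes is shown for the members that the results turn on: Lct and Anpep, which passed the test, Sis, which did not, and Alpi and Mep1a, which varied in opposite ways among the mice. Each line is the 250 bases before the RefSeq transcript start (GRCm38.p6), 5′ to 3′ on the gene's strand, and all 9 genes had an entry. Capitals mark exact matches, on either strand, to short motifs of intestinal transcription factors: TTTAT and TTTAC for CDX, GTTAAT for HNF1, AGATAA and TGATAA for GATA, and CAAAGTCC for HNF4. Neighbouring matches can overlap.
Lct: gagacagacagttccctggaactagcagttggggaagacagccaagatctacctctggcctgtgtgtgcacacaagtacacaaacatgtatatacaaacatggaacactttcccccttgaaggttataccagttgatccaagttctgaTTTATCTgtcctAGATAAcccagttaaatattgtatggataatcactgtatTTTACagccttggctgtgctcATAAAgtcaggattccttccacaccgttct
Anpep: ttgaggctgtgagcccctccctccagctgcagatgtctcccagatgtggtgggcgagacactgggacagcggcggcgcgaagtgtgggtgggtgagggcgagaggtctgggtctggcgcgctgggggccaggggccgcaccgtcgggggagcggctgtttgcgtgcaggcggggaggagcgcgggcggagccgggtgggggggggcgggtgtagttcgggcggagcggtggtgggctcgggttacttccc
Sis: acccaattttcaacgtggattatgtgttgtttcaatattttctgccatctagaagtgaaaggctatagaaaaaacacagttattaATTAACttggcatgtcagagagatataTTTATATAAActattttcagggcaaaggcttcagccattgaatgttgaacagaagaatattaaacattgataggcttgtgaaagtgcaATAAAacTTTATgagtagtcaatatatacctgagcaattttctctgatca
Alpi: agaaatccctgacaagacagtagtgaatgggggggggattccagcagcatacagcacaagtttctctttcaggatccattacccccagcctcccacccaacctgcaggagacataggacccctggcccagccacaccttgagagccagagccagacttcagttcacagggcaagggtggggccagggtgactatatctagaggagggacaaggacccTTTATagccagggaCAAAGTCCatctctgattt
Mep1a: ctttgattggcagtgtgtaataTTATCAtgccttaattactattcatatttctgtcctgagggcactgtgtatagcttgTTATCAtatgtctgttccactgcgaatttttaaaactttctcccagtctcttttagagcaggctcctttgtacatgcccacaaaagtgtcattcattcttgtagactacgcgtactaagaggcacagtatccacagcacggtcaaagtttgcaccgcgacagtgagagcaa
These windows lie at chr1:128328319-128328568, chr7:79848211-79848460, chr3:72967864-72968113, chr1:87101607-87101856 and chr17:43502774-43503023, in that order and all on the minus strand.

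The Lct window held 5 matches, among them TTTAC at positions -51 to -47 from the start, and the Sis window held 4 matches to TTTAT and 1 to GTTAAT. The Alpi window had CAAAGTCC at -19 to -12, and the Mep1a window had TGATAA on the opposite strand at -228 to -223 and -171 to -166. The Anpep window had none of the 6 motifs and a GC content of 72.8%, above that of 94.0% of all windows, whereas the Sis window at 31.6% lay above 2.16% of them. TTTAT was found in 6 of the 9 members and in 37.3% of all 32851 windows of this length. TTTAC was found in 1 member and 28.3% of windows, GTTAAT in 1 and 6.43%, AGATAA in 3 and 9.99%, TGATAA in 1 and 7.94%, and CAAAGTCC in 2 and 1.20%. The motifs were chosen with the sequences in view, and a match is a string of letters rather than a site shown to be bound. Each gene had 1 window, and whether its start is the one used in jejunum was not tested.

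With VND3207, 2 of the 9 hydrolases were lower and none was higher (limma, Benjamini-Hochberg adjusted p under 0.05 over 30608 features). The lower ones were Anpep, 1.70-fold higher with vehicle, and Lct, 1.31-fold higher with vehicle. Over all features 16.1% were lower and 0.944% higher, and among features with a gene name 9.16% were lower and 0.811% higher. The median difference of the 9 genes was -0.22, with 5 below 0 and 4 above, beside -0.08 over all features and -0.01 over those with a gene name. Those 2 genes were also the members whose groups did not overlap, and all VND3207 mice lay below all vehicle mice for 26.3% of features and above them for 9.13%. How many members passed depended on the scaling. After quantile normalization 10.2% of features were lower and 2.23% higher, and none of the 9 members passed in limma, as in the authors' deposited value table with 9.87% lower and 2.39% higher. With smooth trends over brightness, array position and GC content removed, 7.46% were lower and 2.68% higher, and Anpep passed. Scaling to each array's median turned the split of calls over all features from 289 higher and 4931 lower to 5362 higher and 3562 lower (17.5% and 11.6% of features), and there Anpep passed as lower and Enpep as higher. The split was 682 against 3117 after quantile normalization, 732 against 3020 in the deposited table and 819 against 2284 with trends removed. No member's single-gene exact permutation test (two-sided) could fall below 0.1 with 3 mice against 3. The labels call the mice separate animals, so the spread is between mice, but it holds the array's own error as well.

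**Figure D1:**
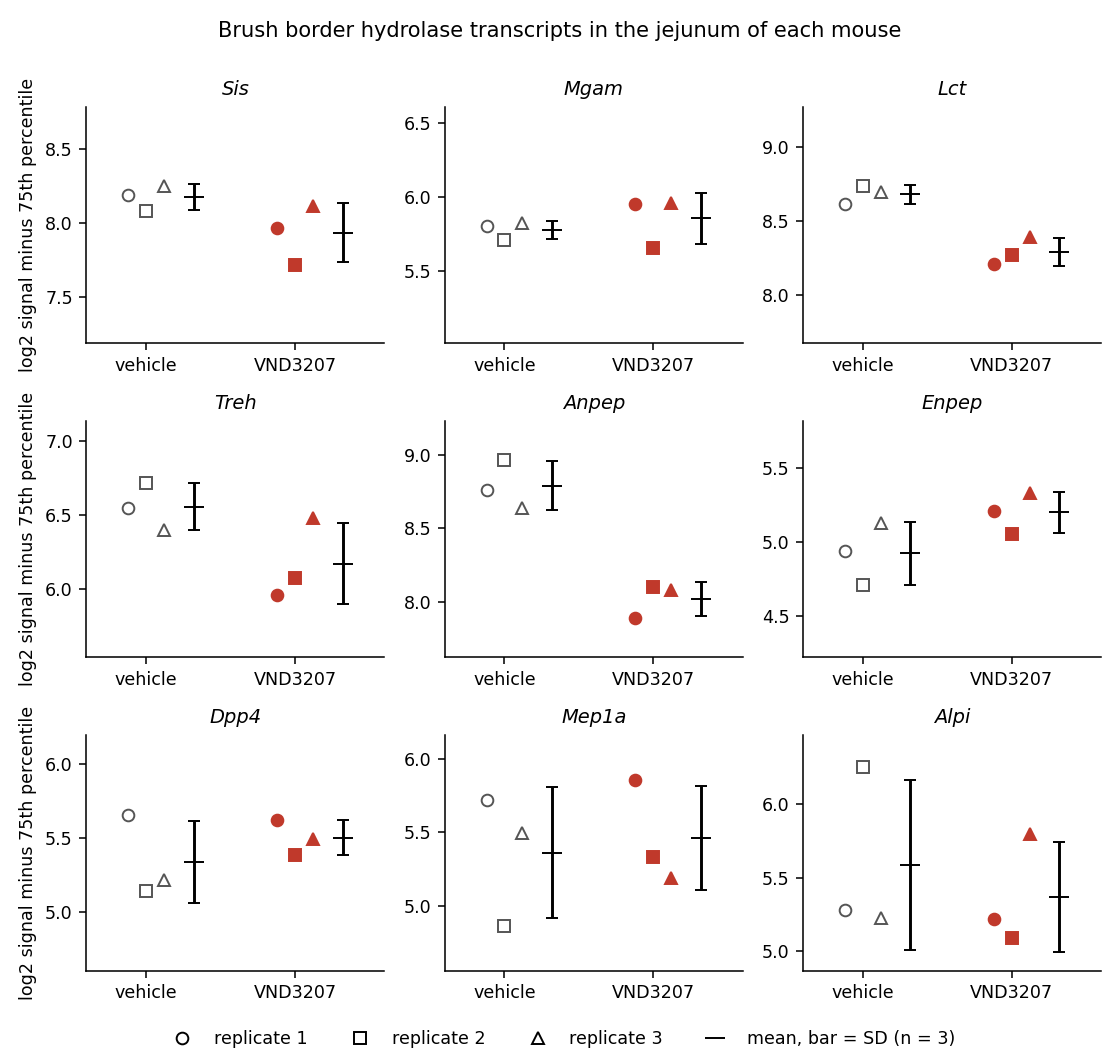
Level of each hydrolase in each mouse (log2 processed signal minus the array's 75th percentile), vehicle and VND3207 mice apart, with the mean of each group. For Anpep all VND3207 mice lie between 7.89 and 8.10, below the vehicle mice at 8.64 to 8.97, while for Mgam, Dpp4, Mep1a and Alpi the groups lie across each other.

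**Figure D2:**
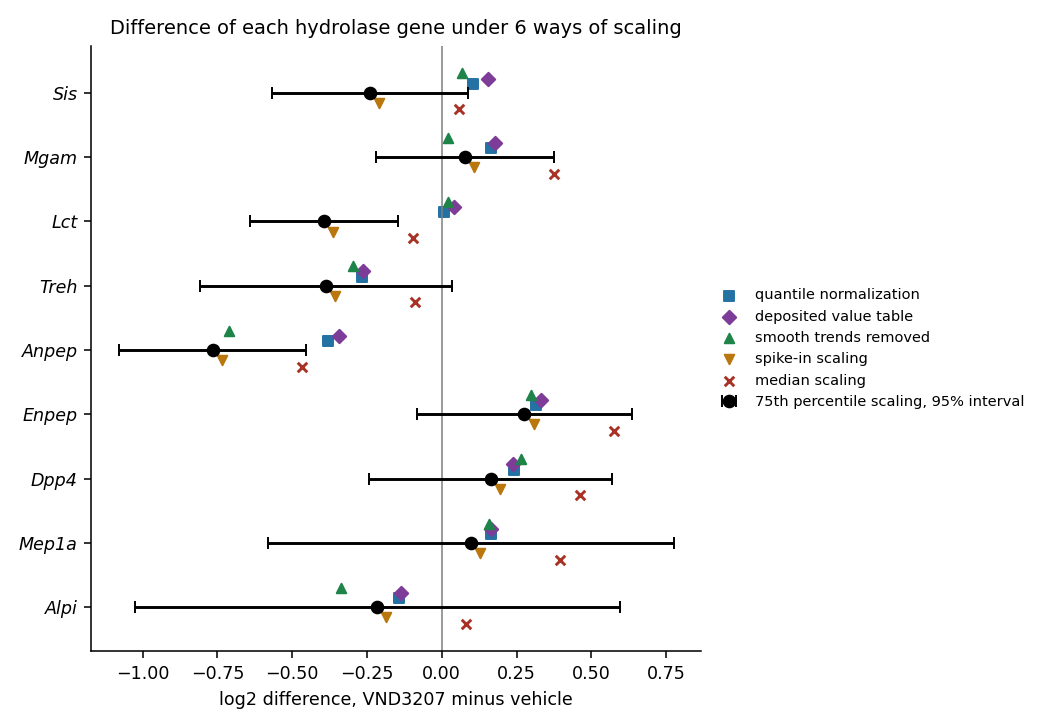
Difference of each hydrolase (VND3207 minus vehicle, log2) with its 95% interval from the limma fit. The intervals of Anpep (-1.08 to -0.45) and Lct (-0.64 to -0.15) lie below 0 and the other 7 cross it.

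The carbohydrate-splitting enzymes were led by Lct, the lactase of milk sugar digestion, whose probe maps to chr1:130181389-130181448 on the minus strand (mm9, as in the scanner files). Its level was 8.61, 8.74 and 8.70 in vehicle replicates 1 to 3 and 8.21, 8.27 and 8.39 in VND3207 replicates 1 to 3. The lowest vehicle mouse lay above the highest VND3207 mouse, so the groups did not overlap. The difference was -0.39 ± 0.10 (SE, n = 3 and 3; limma adjusted p = 0.048). That call was lost when any 1 of the 6 mice was left out, with differences of -0.44 to -0.35 and adjusted p-values of 0.0572 to 0.156, and it was -0.44 (0.0572) without VND3207 replicate 3. The Lct difference itself was 0.01 after quantile normalization, 0.04 in the deposited table, 0.02 with smooth trends removed and -0.10 under median scaling, none of them past the test.

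Sis, the sucrase-isomaltase that splits sucrose and the branch points of starch, was read at chr3:72692810-72692869 (minus strand, mm9). Its level was 8.19, 8.08 and 8.25 with vehicle and 7.97, 7.72 and 8.11 with VND3207. The highest VND3207 mouse lay between vehicle mice, so the groups overlapped. The difference of -0.24 ± 0.13 (limma adjusted p = 0.319) did not pass the test, and its interval ran from -0.57 to 0.09. It took the other sign, at 0.06 to 0.15, under quantile normalization, median scaling, the deposited table and removal of smooth trends.

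Mgam, the maltase-glucoamylase that frees glucose from the ends of starch fragments, gave 5.80, 5.71 and 5.82 with vehicle and 5.95, 5.66 and 5.96 with VND3207 on its brighter probe. The difference was 0.08 ± 0.12 (limma adjusted p = 0.743, interval -0.22 to 0.38), with VND3207 mice both highest and lowest of the 6. That probe spans chr6:40716016-40718228 on the plus strand of mm9. The second Mgam probe, at chr6:40613529-40613588, read 2.33, 2.40 and 2.20 with vehicle and 2.37, 2.51 and 2.72 with VND3207, and its difference of 0.22 ± 0.13 (limma adjusted p = 0.341) had the same sign and did not pass either. Treh, which splits trehalose, the sugar of mushrooms and insects, had levels of 6.55, 6.72 and 6.40 with vehicle and 5.96, 6.07 and 6.48 with VND3207. VND3207 replicate 3 lay within the vehicle range while the other 2 treated mice lay below it, and the difference of -0.39 ± 0.17 (limma adjusted p = 0.212) did not pass the test. Its interval ran from -0.81 to 0.03, and without VND3207 replicate 3 the difference was -0.54 (limma adjusted p = 0.0629).

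Among the peptidases, Anpep, the aminopeptidase N that strips neutral amino acids from the start of a peptide, was lower in VND3207 mice, and its probe lies at chr7:86966716-86966775 on the minus strand (mm9). Its level was 8.76, 8.97 and 8.64 with vehicle and 7.89, 8.10 and 8.08 with VND3207. Every VND3207 mouse was below every vehicle mouse, with a gap of more than the spread in either group. The difference of -0.77 ± 0.13 (interval -1.08 to -0.45, limma adjusted p = 0.0108) was the most negative of the 9, and the call held when any 1 mouse was left out (-0.84 to -0.68, adjusted p 0.0223 to 0.0407). Without VND3207 replicate 3 it was -0.79 (limma adjusted p = 0.0244). The sign was negative in each of 20 alternatives and the call held in 18 of them; it was -0.38 (0.0582) after quantile normalization and -0.34 (0.0768) in the deposited table.

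Enpep, the aminopeptidase A that removes acidic residues, differed from Anpep in sign. Its levels were 4.94, 4.71 and 5.13 with vehicle and 5.21, 5.05 and 5.34 with VND3207. VND3207 replicate 2 lay inside the vehicle range, and the difference of 0.28 ± 0.15 (limma adjusted p = 0.296, interval -0.08 to 0.64) did not pass the test. Under median scaling, which moved the median of all features up by 0.30, Enpep was 0.57 (limma adjusted p = 0.0342) and was then called higher. Dpp4, which cuts dipeptides from chains with proline or alanine in second place and is known for trimming incretin hormones, gave 5.66, 5.14 and 5.21 with vehicle and 5.62, 5.39 and 5.49 with VND3207. Vehicle replicate 1 was the highest of the 6, and the difference of 0.16 ± 0.17 (limma adjusted p = 0.603) was within the spread. Mep1a, the alpha subunit of the metalloprotease meprin, gave 5.72, 4.87 and 5.50 with vehicle and 5.86, 5.33 and 5.19 with VND3207. Vehicle replicate 2 was the lowest of the 6, the groups overlapped, and the difference of 0.10 ± 0.28 (limma adjusted p = 0.866) was -0.15 without that mouse.

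Alpi, the intestinal alkaline phosphatase, which removes phosphate from dietary compounds and from bacterial lipopolysaccharide, had levels of 5.28, 6.25 and 5.22 with vehicle and 5.22, 5.09 and 5.79 with VND3207. Vehicle replicate 2 and VND3207 replicate 3 were the highest 2 and the remaining 4 lay between 5.09 and 5.28. The difference of -0.22 ± 0.33 (limma adjusted p = 0.739, interval -1.03 to 0.59) was 0.12 without vehicle replicate 2. The probes of Treh, Alpi, Dpp4, Enpep and Mep1a lie at chr9:44494328-44494387, chr1:88994890-88994949, chr2:62170062-62170121, chr3:128972910-128972969 and chr17:43611284-43611343 in mm9. No mm9 gene models were used here, so exon or untranslated region is not assigned to any probe.

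Brightness moved with these differences and is a measured fact beside both calls. Of the 120 features with a mean of 8 or more, Lct, Anpep and Sis among them, 119 were below 0, the median was -0.42 and 45.8% were called lower. Between 7 and 8 the median was -0.22, between 6 and 7 it was -0.10 and between 4 and 6 it was -0.02. Lct at -0.39 lay near the median of the brightest features, with 67 of the 120 more negative, whereas 13 of the 120 were more negative than Anpep and 93 more negative than Sis. The Agilent spike-in RNAs, which are made to be added in equal amounts to every sample, differed at the bright end as well: the brightest, at a vehicle mean of 9.07, differed by -0.32 and the next, at 7.51, by -0.40, both without overlap, while those at 6.66 and 4.88 differed by 0.11 and 0.09. Spike-in levels at vehicle means of 2.71, 0.84, -0.28 and -2.82 differed by 0.01, 0.04, 0.38 and -0.15, with overlapping groups. The dimmest, at -5.18 and -7.32, differed by -1.16 without overlap and by 0.43 with overlap, and most of their spots were not well above background. Differences were thus not confined to the bright end. The part of brightness, slide and scan in the Anpep and Lct differences was not tested.

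**Figure D3:**
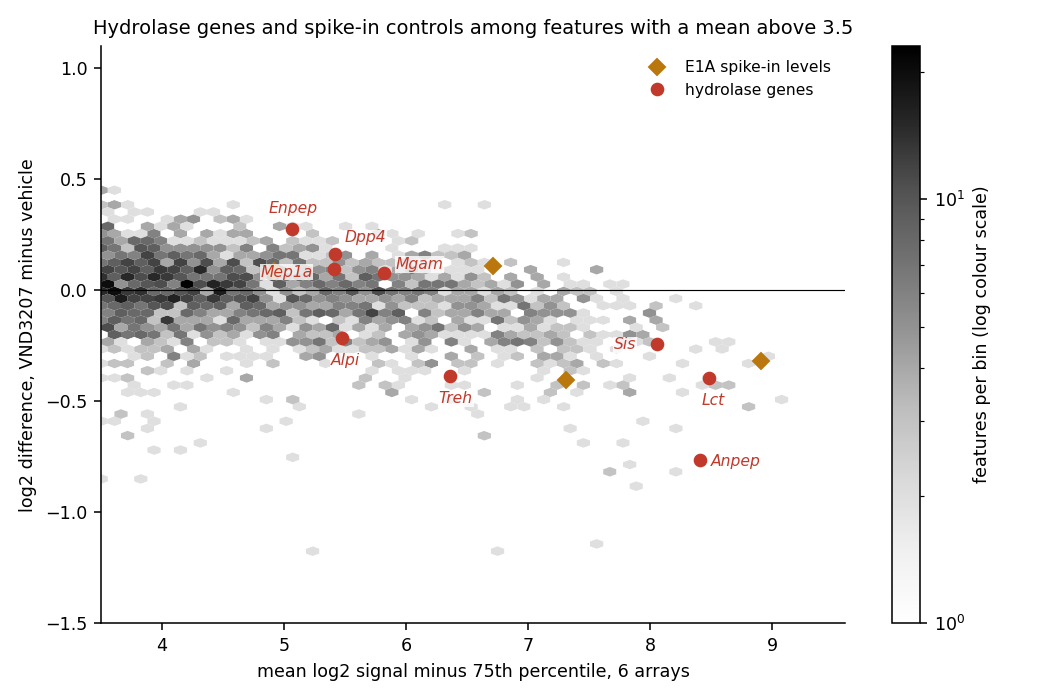
Difference (VND3207 minus vehicle, log2) against the mean level over the 6 arrays for features with a mean above 3.5 (shaded by density), with the 9 hydrolases named and the spike-in RNAs marked. The cloud bends below 0 at the bright end, where Lct and Sis lie within it and Anpep lies toward its lower edge.

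Ratios taken within an array remove any factor common to both probes. Relative to Vil1, the villin that bundles actin in the microvillus and which was itself lower (-0.36 ± 0.09, limma adjusted p = 0.0473), Anpep differed by -0.40 with no overlap: the log2 ratio was 0.46, 0.62 and 0.42 with vehicle and -0.01, 0.18 and 0.13 with VND3207. Lct relative to Vil1 differed by -0.03 and Sis by 0.12, both with overlapping groups. With smooth trends removed these differences were 0.27 and 0.31. For Mgam, Dpp4 and Enpep relative to Vil1 the differences were 0.44, 0.53 and 0.64, each without overlap. They were 0.18, 0.26 and 0.33 after quantile normalization, 0.14, 0.20 and 0.29 in the deposited table, and 0.27, 0.51 and 0.55 with smooth trends removed. On their own Mgam, Dpp4 and Enpep differed by 0.08, 0.16 and 0.28, with overlapping groups. Vil1 had a mean of 8.11, and features at 8 or more had a median difference of -0.42. How many of all features would not overlap relative to Vil1 was not computed. Anpep relative to Enpep, the pair of aminopeptidases, was 3.83, 4.26 and 3.51 with vehicle and 2.68, 3.05 and 2.75 with VND3207, a difference of -1.04. This pair joined the lowest and the highest difference of the 9 members. The ratios were chosen after the data were seen, so their p-values below are descriptive. Sis relative to Mgam differed by -0.32 without overlap, but by -0.06 after quantile normalization and 0.05 with smooth trends removed. For the non-overlapping ratios the exact permutation p was 0.1, the smallest that 3 against 3 allows, and 0.183 after Benjamini-Hochberg adjustment over the 11 ratios computed. The Anpep to Vil1 difference was -0.37 after quantile normalization, -0.38 in the deposited table and -0.46 with smooth trends removed, and the Anpep to Enpep difference was -0.70, -0.67 and -1.01. Such a ratio shows unequal change between probes and not which of them changed, and these probes differ in brightness.

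The hydrolases did not vary as 1 block among the mice. Counting members above their own 6-mouse mean, vehicle replicates 1 to 3 had 6, 5 and 7 of 9 and VND3207 replicates 1 to 3 had 4, 0 and 6. VND3207 replicate 2 was thus below the mean in all 9 genes, with a median deviation of -0.22, whereas VND3207 replicate 3 and vehicle replicate 3 each had a median deviation of 0.07. The Alpi and Mep1a orders described above were mirrored in other surface enzymes: vehicle replicate 2 and VND3207 replicate 3 were the highest 2 for Ggt1, Enpp3, Akp3 and Tmprss15, and the lowest 2 for Xpnpep2, Naaladl1, Enpp7 and Plb1. For Tmprss15, the enteropeptidase that activates trypsin and is known from the duodenum, these mice read 3.82 and 2.82 and the others -4.77 to 0.77. Pdx1, a transcription factor of the duodenum, read -1.25 and -3.95 in them and -7.26 to -4.47 in the others, of which VND3207 replicates 1 and 2 were not well above background. Akp3 was also dim, at -5.36 in VND3207 replicate 2, where the lowest signal well above background was -4.78. The ileal markers did not share 1 order in vehicle replicate 2 and VND3207 replicate 3. Slc10a2 read -3.16 and -2.33 in these mice, the lowest and the highest of the 6, and Fabp6 read -2.03 and -2.51. Over all features 7.87% had these mice highest and 6.28% lowest, against 14 and 7 of the 70 genes in the hydrolase, microvillus, carrier and transcription factor lists. This order was picked after its values were seen and crosses the treatment groups, so it is a description with no test.

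**Figure D4:**
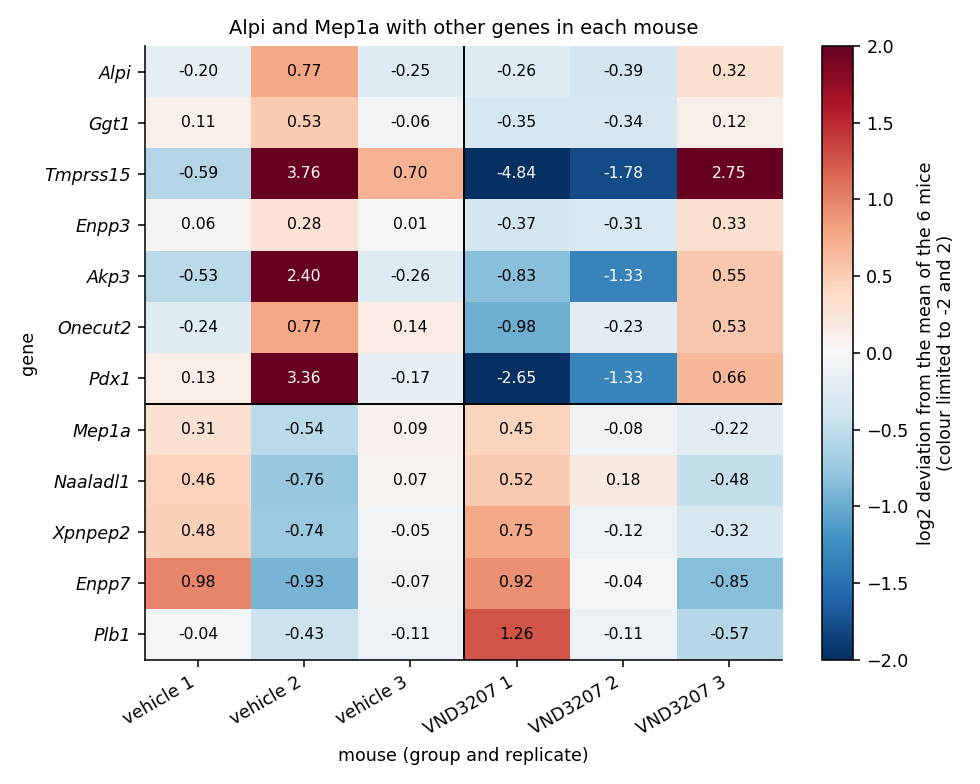
Deviation of each gene from its own 6-mouse mean (log2) in each mouse, for Alpi, Mep1a and selected genes in which vehicle replicate 2 and VND3207 replicate 3 were the highest 2 (upper block) or the lowest 2 (lower block). Tmprss15 spans from -4.84 to 3.76 and Mep1a and Alpi run in opposite directions.

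The surrounding machinery of the brush border was tested with lists of related genes. For comparison, 8705 of all 30608 features, and 3388 of 17394 with a gene name, had an unadjusted limma p under 0.05. Of 16 other surface hydrolases 15 were tested (Folh1 was not above background) and none passed in limma, 0 at an unadjusted p under 0.05, with a median of -0.14 and 9 below 0. The nearest relative, Mep1b, the beta subunit of meprin, gave 8.06, 7.91 and 7.81 with vehicle and 7.68, 7.72 and 7.70 with VND3207; the groups did not overlap, and the difference of -0.22 (limma adjusted p = 0.239) did not pass. Of 14 microvillus genes 1 passed, Vil1, which was lower; its call was lost when any 1 mouse was left out, and its sign turned in the deposited table (0.04). Of 14 sugar and amino acid carriers none passed in limma, 0 at an unadjusted p under 0.05, with a median of 0.02. Of 18 transcription factors of the intestinal epithelium, such as Cdx2 and Hnf4a, none passed in limma, 2 at an unadjusted p under 0.05, with a median of 0.01.

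Other cell types were read from marker lists as measured facts beside the hydrolases. Among features with a gene name 9.16% were called lower and 0.811% higher, and 3388 of 17394 had an unadjusted limma p under 0.05. Of 8 enterocyte lipid genes 2 were lower, the fatty acid binding proteins Fabp1 (-0.82) and Fabp2 (-0.58), both with a mean of 8 or more. Fabp1 was -0.42 after quantile normalization and -0.38 in the deposited table, past the test in neither, and its call held in 18 of 20 alternatives. Fabp2 was -0.13 under those settings and with smooth trends removed, and its call held in 11 of 20. Of 6 Paneth cell genes 4 were lower, Defa26 (-0.94), Defa24 (-0.86), Lyz1 (-0.65) and Itln1 (-0.41). Itln1 turned to 0.0048 after quantile normalization and 0.0021 in the deposited table. These 4 were bright. Defa24 and Itln1 had means of 8.48 and 8.57, and 45.8% of features at 8 or more were called lower. Defa26 and Lyz1 had means of 7.41 and 7.98. Of the 393 features between 7 and 8, 77 were called lower, with a median of -0.22 and a 5th percentile of -0.89. Ang4 (0.19, mean 5.39) and Mmp7 (0.08, mean 4.31) were dimmer, lay above 0 and did not pass. The Paneth list's summed level was 9.91 to 9.97 with VND3207 and 10.54 to 10.66 with vehicle. That of the hydrolases was 10.05 to 10.24 with VND3207 and 10.47 to 10.57 with vehicle. The summed levels of the enterocyte lipid, goblet, immune and stomach lists were also lower without overlap, and those of the other lists overlapped. The calls of Defa24, Defa26, Lyz1 and Itln1 held in 20, 19, 17 and 6 of 20 alternatives. Of 17 pancreatic enzyme genes 13 were tested and 3 were lower, Cpa1, Cela3b and Cel. In all 3 VND3207 mice Cpa1 and Cela3b were not well above background. Their vehicle means are therefore set against the lowest signal well above background of each VND3207 array, averaged over the 3 arrays in log2. A dim spike-in RNA, at a vehicle mean of -5.18, differed by -1.16 without overlap. On this scale the vehicle mean of Cpa1 was 2.33-fold that averaged lowest signal (limma adjusted p = 0.0445) and that of Cela3b 2.92-fold (limma adjusted p = 0.0187). The p-values come from the measured values. Cpa1 read -2.15 in vehicle replicate 2, but -4.51 and -4.29 in vehicle replicates 1 and 3. Under normexp background correction the differences of Cpa1 and Cela3b were both -0.60 and neither passed. The calls held in 7 (Cpa1) and 13 (Cela3b) of 19 alternatives and in 10 of 20 for Cel. Of 7 stromal and endothelial genes Pdgfra was higher (0.58) and Pecam1 and Kdr were lower (-0.56 and -0.60, Kdr turning to 0.0027 as the mean of its probes), and of 10 immune genes Itgam was lower (-0.75), but -0.22 (limma adjusted p = 0.291) as the mean of its probes. The calls of Pdgfra, Pecam1, Kdr and Itgam held in 7, 16, 12 and 8 of 20 alternatives. Of the goblet (7), proliferating (10), stem (6) and enteroendocrine (8) lists no gene passed in limma, with 2, 1, 0 and 0 at an unadjusted p under 0.05. Of 6 smooth muscle genes none passed in limma, 0 at an unadjusted p under 0.05, and all 6 were below 0 with a median of -0.63. That median rested on VND3207 replicate 3, where all 6 were low, and was 0.10 without it. Of the ileal (2) and colonic (2) lists no gene passed in limma, 0 at an unadjusted p under 0.05, and of 4 stomach genes 2 were tested and Muc5ac was lower (-1.25). The part of these cell types in the hydrolase values was not tested.

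**Figure D5:**
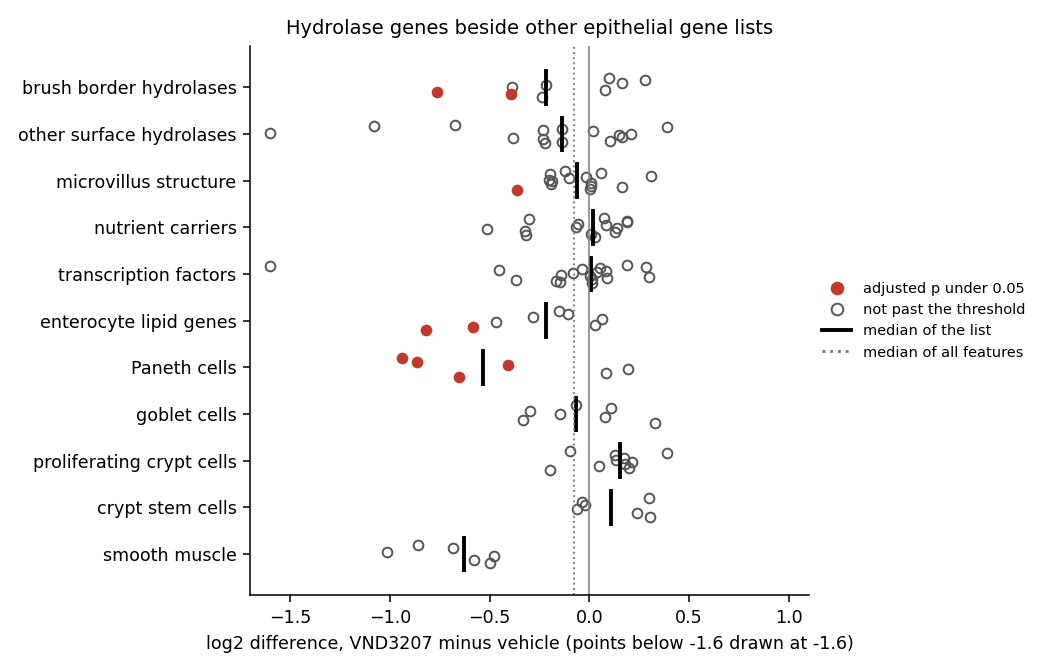
Differences (VND3207 minus vehicle, log2) of the tested genes in each list, with the list's median. The hydrolases' median is -0.22, the Paneth list's is -0.53 and the carriers' is 0.02.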

How the data were processed

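Cy3 spot intensity from 6 Agilent arrays was read from the deposited scanner files (Agilent Feature Extraction 10.7.1.1, per the submitters' processing notes), in which the processed signal is already background-subtracted. The authors' deposited value table holds log2 values with a median of 6.05 per array; how it was normalized is not given in the sources used here, and it served as an alternative. Here log2 processed signal minus each array's 75th percentile was used. Probes well above background on at least 3 arrays were kept, and each gene was represented by its kept probe with the highest mean. Names came from the accessions and symbols in the files, updated through RefSeq. Differences were tested with limma 3.58.1 (R 4.3.3), with Benjamini-Hochberg adjustment over all 30608 features and a threshold of 0.05, after the procedure was tested on simulated data. Those simulated data held no slide, scan or brightness effect, so that check does not bear on such effects. Ratios used two-sided exact permutation tests. The number of arrays limits the precision. The rule for named genes took all members, up to 5 genes of each brush border and pancreatic list (those past the threshold, then the brightest), and from each cell type list those past the threshold and the brightest. Outside it, Ggt1, Akp3, Tmprss15, Naaladl1, Enpp7, Plb1 and Pdx1 were singled out for their values. Ang4, Mmp7 and Slc10a2 were named to complete the Paneth and ileal lists. The 9 members and all lists were chosen with earlier results of these data known. Same-numbered mice did not deviate together (correlations 0.12, -0.11 and -0.04), so numbers were not used as pairs. Smooth trends were fitted per array with mgcv 1.9.3. Alternatives changed the scaling, background correction, filter, model, threshold and mice included.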

Additional observations from a re-analysis of the deposited data

How the results depend on the processing

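Of the 9 members, Anpep, Mgam, Treh, Dpp4 and Enpep kept their sign in all 20 alternatives; Sis, Lct, Alpi and Mep1a did not, and where a sign turned the cause was not tested. Spike-in scaling and the within-array ratios were chosen after seeing the data. The higher and lower calls over all features, the members lower and the members' median were 289, 4931, 2 and -0.22 as reported. They were 682, 3117, 0 and 0.10 after quantile normalization (Sis 0.10, Lct 0.0089, Itln1 0.0048); 732, 3020, 0 and 0.15 in the deposited table (Sis 0.15, Lct 0.042, Vil1 0.036, Itln1 0.0021); and 819, 2284, 1 and 0.021 with smooth trends removed (Sis 0.067, Lct 0.021). Median scaling gave 5362 higher, 1 member lower and 1 higher, and a median of 0.082 (Sis 0.058, Alpi 0.082). Normexp background correction gave 2684 lower, and requiring all arrays above background gave 2756 lower. Spike-in scaling gave 120 higher and no filter gave 598 higher, each with 1 member lower. A threshold of 0.1 on the adjusted p gave 717 higher, and averaging a gene's probes put Kdr at 0.0027. With the replicate number as a block, 140 features were higher, 3334 lower and 1 member lower; no pairing of mice is stated. Leaving out 1 mouse at a time gave 121 to 267 higher, 2872 to 4779 lower, 1 member lower each time and a median of -0.33 to -0.077; Alpi ran from -0.43 to 0.12 and Mep1a from -0.15 to 0.28, Mep1a being -0.10 without VND3207 replicate 1. A block for slide or scan could not be fitted, since each holds 1 group. Non-members that passed no test were followed through the alternatives by list medians only. Signal over background does not limit the members, all of which were well above it on every array; 3 mice a group does.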
